A study of Mus musculus with 4 samples.

Results

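The globin genes of the embryo and of the adult, together with Alas2 and Afp, were followed in bulk RNA sequencing of mouse liver. The 9 genes were chosen by symbol: the embryonic globins Hbb-y, Hbb-bh1 and Hba-x, the adult globins Hba-a1, Hba-a2, Hbb-bs and Hbb-bt, the erythroid heme enzyme Alas2, and the fetal plasma protein gene Afp. Of these, 8 had a row among the 27179 genes counted, and Hbb-bt was not analysed here. Tissue came from wild-type C57BL/6 mice labelled male, either after a night without food and with free water, or unfasted with food and water always present, called non-fasted below. Each group had 2 libraries, and the sources used here give neither the age of the mice nor which mouse gave which library. The title of each sample gave its group, since the treatment field reads fasted for all 4. The fasted libraries held 13541405 and 13528015 counts and the non-fasted libraries 36975921 and 36943535, so a gene of equal share had fewer counts in the fasted group.

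Hemoglobin is built from α-like and β-like globin chains that each carry a heme. In the mouse, primitive red cells formed in the yolk sac use the embryonic chains, and definitive red cells from the fetal liver and later the bone marrow use the adult chains. Alas2 makes the first enzyme of heme synthesis in red cell precursors, whereas most other cells, hepatocytes included, use Alas1. Afp, a relative of albumin, is made by the yolk sac endoderm and the fetal liver and is silenced in the liver after birth. Adult liver no longer makes red cells, but blood in the tissue brings its own RNA.

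Embryonic and adult globins could be told apart by their sequence, as the first 60 coding bases of each show. They are given from GENCODE transcripts of the GRCm38 build, 5′ to 3′, with capitals where an embryonic gene differs from the adult gene of its family.
Hbb-bs (chr7:103827816-103827875, minus strand): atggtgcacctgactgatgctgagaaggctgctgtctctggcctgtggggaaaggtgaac
Hbb-y (chr7:103853093-103853152, minus strand): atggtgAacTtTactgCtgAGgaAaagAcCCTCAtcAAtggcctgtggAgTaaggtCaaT
Hbb-bh1 (chr7:103843051-103843110, minus strand): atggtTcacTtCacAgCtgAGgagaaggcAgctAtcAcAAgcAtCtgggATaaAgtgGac
Hba-a1 (chr11:32283707-32283766, plus strand): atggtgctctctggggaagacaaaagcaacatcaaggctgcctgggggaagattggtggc
Hba-x (chr11:32276664-32276723, plus strand): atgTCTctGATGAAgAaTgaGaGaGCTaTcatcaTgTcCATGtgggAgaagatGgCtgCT
In this stretch Hbb-y differed from Hbb-bs at 19 bases, Hbb-bh1 from Hbb-bs at 18, and Hba-x from Hba-a1 at 28. Over the 444 coding bases, Hbb-y was 74.3% and Hbb-bh1 74.1% identical to Hbb-bs, and over 429 coding bases Hba-x was 62.0% identical to Hba-a1. Neither Hbb-y nor Hbb-bh1 shared a 50-base window with Hbb-bs (0 shared windows), and the same was true of Hba-x with Hba-a1. The adult copies are another matter. Hba-a1 and Hba-a2 differed at 1 coding base and shared 331 of 380 windows, and Hbb-bs and Hbb-bt also differed at 1 base and shared 367 of 395. Counts of single adult copies are therefore uncertain, and sums over Hba-a1 and Hba-a2 are given beside them.

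The non-fasted libraries stood apart from their labels. All 14 hepatocyte markers, albumin (Alb) among them, which were present in every library, were lower in the non-fasted group, where they summed to 50142 and 49900 CPM (counts as a share of the library's total, scaled to the same sum in each library) against 121290 and 121560. The 14 trophoblast markers summed to 52818 and 53298 CPM in the non-fasted and 0.886 and 0.665 in the fasted libraries. Of these, 8 were at 0 in the fasted group and 1 (Synb) at 0 in the non-fasted group. All 11 tested were higher, but none had more than 3 counts in a fasted library. They entered the test through their non-fasted counts alone, so none could have been called lower. Gcm1, Synb and Elf5 were not tested, Elf5 with 4 and 3 fasted against 6 and 3 non-fasted counts. Xist, transcribed from the inactive X chromosome, had 25772 and 26316 against 2 and 1 counts, beside a male label on all 4. Both non-fasted libraries showed this alike, so no result can be given without it, and fasting and this difference cannot be told apart in any comparison below. In bulk tissue, fewer cells of a type and less RNA per cell cannot be told apart.

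The embryonic globins were detected in the non-fasted libraries only, at very low counts. Hbb-y, the εy chain of the first yolk sac red cells, had 0 and 0 counts in the fasted libraries and 18 and 20 in the non-fasted libraries. Hba-x, the ζ chain and the α-like partner of the embryo, had 0 and 0 against 16 and 9. Hbb-bh1, another embryonic β-like chain, had 0 and 0 against 2 and 0. So both non-fasted libraries held Hbb-y and Hba-x and neither fasted library did, while Hbb-bh1 appeared in 1 library alone. Summed over the 3 genes there were 0 embryonic counts in either fasted library against 36 and 29. A count of 0 allows up to 3 counts per group, and against this floor Hbb-y was at least 4.64-fold higher in the non-fasted group per total counts and at least 3.27-fold higher after median-of-ratios scaling, which sets the typical gene equal between libraries. For Hba-x the bounds were at least 3.05-fold and 2.15-fold higher. These bounds limit the fasted side only and take the non-fasted counts as they stand, without their counting error. No fold is given for Hbb-bh1, whose 2 counts lie under the floor.

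Hbb-y was the only embryonic globin with enough counts to enter the test across 15470 genes, and it entered through its non-fasted counts alone. Its adjusted p was 0.00105 (edgeR's quasi-likelihood test, Benjamini-Hochberg over all genes tested), and 0.0203 when no filter on low counts was set. Without either non-fasted library it did not pass the filter and was not tested. Calls were common, since 45.0% of all genes tested were called higher in the non-fasted libraries and 37.2% lower. Hba-x and Hbb-bh1 did not pass the filter. Without it their adjusted p was 0.0910 and 0.542, so neither was called.

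**Figure D1:**
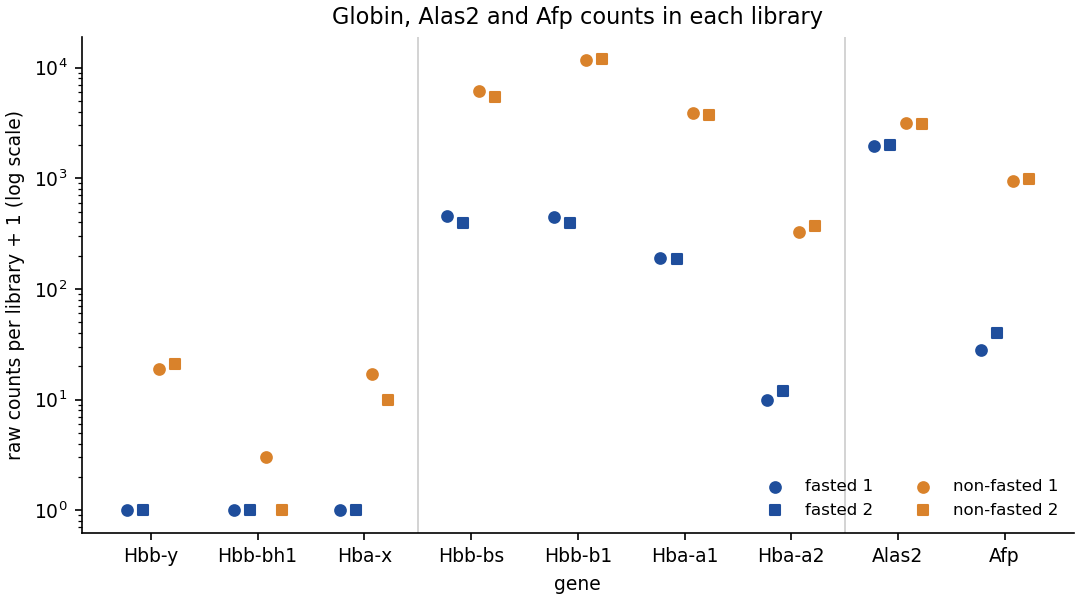
Raw counts plus 1 on a log axis for the 8 members with a row and for Hbb-b1, a further adult β-globin record, in each of the 4 libraries (circles replicate 1, squares replicate 2). Embryonic globins lie between 0 and 20 counts, adult globins are far above the fasted points in both non-fasted libraries, and Alas2 alone lies between 1939 and 3126 counts in all 4.

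The adult globins were all higher in the non-fasted libraries. Hba-a1 had 191 and 185 counts with fasting against 3851 and 3734 without. In normalized counts, which are counts divided by the library's size factor, this was 370 ± 7.36 (SD, n = 2) against 1927 ± 41.1 (SD, n = 2), which put the log2 fold change at 2.38 with a standard error of 0.054 (adjusted p = 4.0e-10). Replicates thus sat close together and the groups far apart. Hba-a2, the neighbouring α copy, had 9 and 11 against 328 and 370 counts, with its log2 fold change at 3.16 ± 0.23 (standard error; adjusted p = 1.6e-06). Hbb-bs, an adult β chain, had 451 and 392 against 6120 and 5440 counts, or 829 ± 79.9 (SD, n = 2) against 2937 ± 243 (SD, n = 2) normalized counts. Its log2 fold change, 1.82 with a standard error of 0.099 (adjusted p = 1.8e-07), was the smallest of the 3.

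The 2 libraries of a group agreed less well in Hbb-bs than in Hba-a1. For Hbb-bs the chi-square of the replicate pair, at 1 degree of freedom and with the library totals as expectation, was 4.07 in the fasted and 39.4 in the non-fasted group. Hba-a1 gave 0.0899 and 1.70, close to what counting error alone gives. Non-fasted library 1 thus held more Hbb-bs than library 2 beyond counting error, though both stood above either fasted library.

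A further record, Hbb-b1 (Entrez gene 15129), was taken up after its values were seen, because it is another record of an adult β-globin gene. Hbb-b1 had 450 and 391 counts in the fasted libraries, each 1 below Hbb-bs, and 11734 and 11880 in the non-fasted libraries. Its ratio to Hbb-bs was 0.998 and 0.997 in the fasted against 1.92 and 2.18 in the non-fasted libraries. Here the excess of non-fasted library 1 was absent (chi-square 1.04). How reads that match both records were counted is not given in the sources used here, so the split between the 2 is uncertain in every library. Nor is it known whether some reads were counted under both records, in which case sums of the 2 would hold them more than once. Hbb-b1 itself was higher in the non-fasted group, by 2.86 on the log2 scale, with a standard error of 0.049 (adjusted p = 6.3e-11).

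The balance of adult α and β chains within a library, which needs no scaling between libraries, depended on which β records were counted. Adult α counts (Hba-a1 and Hba-a2) per Hbb-bs count were 0.443 and 0.500 with fasting and 0.683 and 0.754 without. With Hbb-b1 added to Hbb-bs they were 0.222 and 0.250 against 0.234 and 0.237, so that the groups overlapped and the ratio of their means went from 1.52 to 0.997. The Hba-a2 share of adult α counts was 4.50% and 5.61% in the fasted libraries (Wilson 95% intervals 2.39 to 8.33% and 3.16 to 9.77%) and 7.85% and 9.02% in the non-fasted (7.07 to 8.70% and 8.18 to 9.93%). These intervals of single libraries overlapped between the groups. With both libraries of a group summed they did not, at 3.29 to 7.67% with fasting and 7.85 to 9.04% without. The split of counts between Hba-a1 and Hba-a2 is itself uncertain, since the copies share most of their sequence, and the cause of this difference was not tested. An exact two-sided permutation test over 4 libraries cannot give a p below 0.333, which was the p of each ratio and share reported here except α per β with Hbb-b1 added, where p was 1.0. Intervals and floors cover counting error only.

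The embryonic share of globin counts was below 1% wherever it could be measured. Of the β counts of the members (Hbb-y, Hbb-bh1 and Hbb-bs), 20 of 6140 were embryonic in non-fasted library 1 and 20 of 5460 in library 2, which is 0.326% (Wilson 95% interval 0.211 to 0.503%) and 0.366% (0.237 to 0.565%). Of the α counts, 16 of 4195 and 9 of 4113 were Hba-x, or 0.381% (0.235 to 0.619%) and 0.219% (0.115 to 0.415%). The mean shares were 0.346% ± 0.0287 (SD, n = 2) for β and 0.300% ± 0.115 (SD, n = 2) for α, a difference within the spread of the α share. With Hbb-b1 in the β denominator the β share was lower, at 0.112% (0.0724 to 0.173%) and 0.115% (0.0747 to 0.178%). Both values were below either α share, but their intervals overlapped that of the α share in library 2.

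In the fasted libraries the embryonic share was 0 in both families, but few globin counts stood behind it. In the 2 fasted libraries together, 0 of 843 β counts allowed a share of up to 0.356%, against 0.345% in the non-fasted libraries together. For α, 0 of 396 counts allowed up to 0.758%, against 0.301%. At the non-fasted share, 2.91 embryonic β counts and 1.19 embryonic α counts would have fallen in the fasted group. A difference in the embryonic share between the groups was therefore not detectable at this depth for either family. With Hbb-b1 added to the β counts the non-fasted share was 0.114% and the fasted floor, 0 of 1684, was 0.178%, so this held there too.

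**Figure D2:**
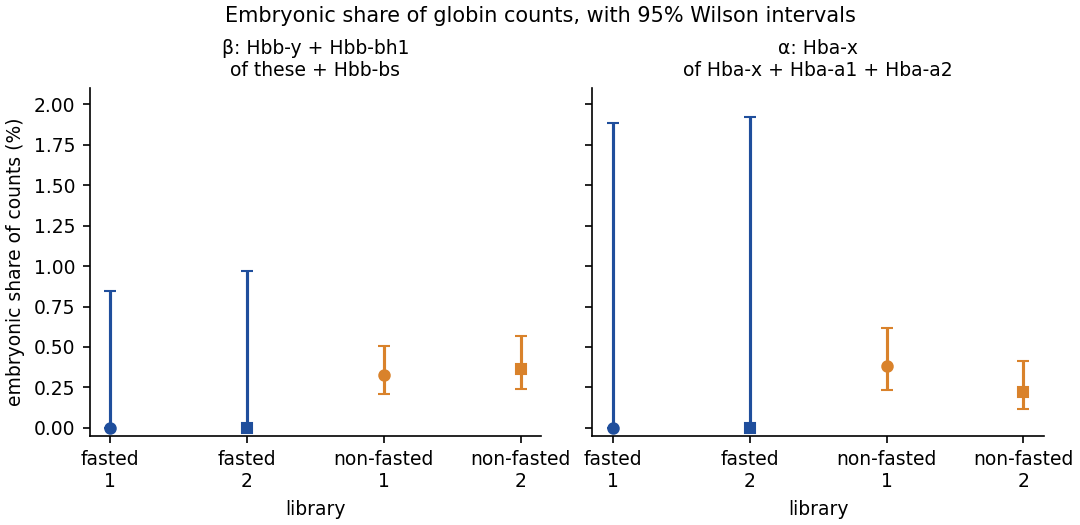
Embryonic share of β-like (left) and α-like (right) globin counts in each library, in percent, with Wilson 95% intervals as bars. The non-fasted points lie between 0.219% and 0.381%, and every fasted interval starts at 0 and reaches above them.

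Alas2 went the other way from the globins. It had 1939 and 2001 counts with fasting and 3126 and 3083 without, which is 143 and 148 CPM against 84.5 and 83.5. Normalized counts were 3877 ± 96.7 (SD, n = 2) against 1577 ± 14.6 (SD, n = 2), which put the log2 fold change at -1.30 with a standard error of 0.031 (adjusted p = 5.6e-10). Both fasted libraries were above both non-fasted ones, and replicates differed by no more than counting error (chi-square 1.04 and 0.261). This direction depended on the scaling. With total counts the log2 fold change was -0.79, but with the 14 hepatocyte markers set equal between the groups it was 0.47 (adjusted p = 3.0e-10), that is, higher in the non-fasted libraries.

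Ratios within a library do not depend on scaling. Alas2 counts per adult globin count (Hba-a1, Hba-a2 and Hbb-bs) were 2.98 and 3.40 with fasting and 0.304 and 0.323 without, 10.2-fold higher in the fasted group, and 13.3-fold with Hbb-b1 added to the globins. Against Alas1, its counterpart in other cells, Alas2 was at 0.258 and 0.267 with fasting and 0.757 and 0.752 without. Per 1000 Alb counts it was at 2.09 and 2.16 against 2.93 and 2.91. So Alas2 was lower relative to globin in the non-fasted libraries but higher relative to Alas1 and Alb.

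Afp was low in every library and higher in the non-fasted ones. Counts were 27 and 39 with fasting and 949 and 986 without, or 65.0 ± 16.9 (SD, n = 2) against 492 ± 13.5 (SD, n = 2) normalized counts. The log2 fold change was 2.92 (standard error 0.13, adjusted p = 3.5e-08). Per 1000 counts of Alb, the neighbouring gene that takes over from Afp after birth, Afp stood at 0.0291 and 0.0420 with fasting and 0.890 and 0.929 without. Adult globins per 1000 Alb counts stood at 0.702 and 0.633 against 9.66 and 8.99. In both ratios the groups were apart by many times the spread of their replicates, and even in the non-fasted libraries there was less than 1 Afp count per 1000 Alb counts.

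**Figure D3:**
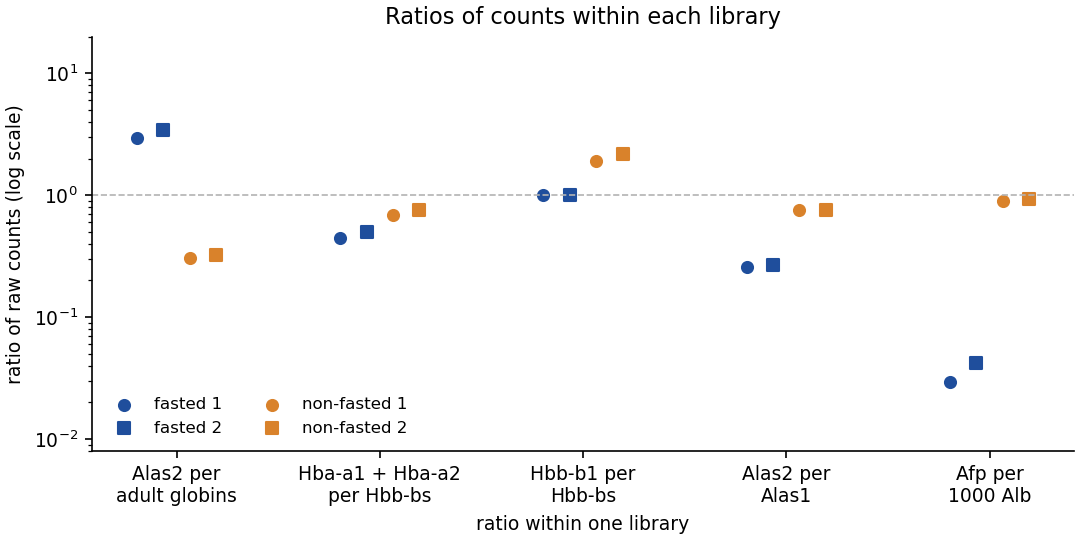
Ratios of raw counts within each library on a log axis, with circles for replicate 1, squares for replicate 2 and a dashed line at 1. Alas2 per adult globin count is near 3 in the fasted and near 0.3 in the non-fasted libraries, whereas the other ratios are higher in the non-fasted libraries, Afp per 1000 Alb counts most of all.

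Across the members, 5 of the 6 that entered the test were called higher in the non-fasted libraries (Hbb-y, Hba-a1, Hba-a2, Hbb-bs and Afp) and 1 was called lower (Alas2). Hbb-y entered through its non-fasted counts alone and could not have been called lower, so its call adds nothing to this split. Over all genes tested the shares were 45.0% and 37.2%, and the common coefficient of variation between replicates was 0.009882, so that a call by itself sets no gene apart. Since no source ties a library to a mouse, these p-values measure the spread between the libraries, which may be technical. The size of the changes is read against the median of all genes, which was 0.13 on the log2 scale, 0.63 with total counts and 1.90 with the hepatocyte markers set equal. Under that last scaling the log2 fold changes were 4.15 for Hba-a1, 4.92 for Hba-a2, 3.59 for Hbb-bs and 4.68 for Afp, all above that median, and 0.47 for Alas2, below it. With the trophoblast markers left out of the scaling, a setting chosen after the data were seen, the members' calls stood at 5 higher and 1 lower, with Hba-a1 at 2.38 and Afp at 2.92.

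Per coding length, the order of the members differed between the groups. Hbb-b1 was left out of this order, although in the fasted libraries it averaged 31.1 CPM, as Hbb-bs did. How reads were split between these records is uncertain, so the place of Alas2 against all adult β counts there is not settled. In the fasted libraries Alas2 led with 82.5 ± 1.89 (SD, n = 2) CPM per coding kilobase, followed by Hbb-bs with 70.1 ± 6.89 (SD, n = 2), Hba-a1 with 32.4 ± 0.708 (SD, n = 2), Hba-a2 with 1.72 ± 0.245 (SD, n = 2) and Afp with 1.34 ± 0.346 (SD, n = 2). The last pair overlapped. In the non-fasted libraries Hbb-bs led with 352 ± 29.1 (SD, n = 2), followed by Hba-a1 with 239 ± 5.07 (SD, n = 2) and Alas2 with 47.6 ± 0.437 (SD, n = 2). Below them came Hba-a2 with 22.0 ± 1.89 (SD, n = 2), Afp with 14.4 ± 0.398 (SD, n = 2), Hbb-y with 1.16 ± 0.0869 (SD, n = 2), Hba-x with 0.788 ± 0.312 (SD, n = 2) and Hbb-bh1 with 0.0609 ± 0.0861 (SD, n = 2). Hbb-y and Hba-x rested on so few counts that their order is not settled, since Hba-x had 16 and Hbb-y 18 counts in library 1.

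The 100 bases before the transcription start show which motif letters known from globin promoters these genes hold. The sequences are from RefSeq on the GRCm38.p6 build, 5′ to 3′ towards the gene, and 8 of the 9 genes had an entry. Capitals mark matches, on either strand, to 4 kinds of motif. The CACCC box and the CCAAT box were searched under these letters. The GATA forms searched were AGATAA together with AGATAG, and also TGATAA together with TGATAG. The TATA forms searched were TATAA and also CATAAA, and no form contains another.
Hbb-y (chr7:103853208-103853307, minus strand): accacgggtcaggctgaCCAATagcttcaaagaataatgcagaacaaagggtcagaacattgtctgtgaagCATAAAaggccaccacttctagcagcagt
Hbb-bs (chr7:103827929-103828028, minus strand): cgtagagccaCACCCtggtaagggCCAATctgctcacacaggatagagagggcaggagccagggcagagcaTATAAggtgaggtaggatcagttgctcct
Hba-x (chr11:32276500-32276599, plus strand): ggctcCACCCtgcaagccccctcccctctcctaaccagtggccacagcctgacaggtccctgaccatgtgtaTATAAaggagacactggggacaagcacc
Hba-a1 (chr11:32283572-32283671, plus strand): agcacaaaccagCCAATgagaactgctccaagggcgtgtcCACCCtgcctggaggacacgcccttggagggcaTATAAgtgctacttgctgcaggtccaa
Alas2 (chrX:150547317-150547416, plus strand): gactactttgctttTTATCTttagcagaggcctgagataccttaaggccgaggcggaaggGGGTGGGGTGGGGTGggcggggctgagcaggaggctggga
Afp (chr5:90490614-90490713, plus strand): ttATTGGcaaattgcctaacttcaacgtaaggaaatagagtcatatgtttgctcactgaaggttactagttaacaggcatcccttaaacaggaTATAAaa
Hbb-bs and Hba-a1 held CACCC as well as CCAAT within the 100 bases, and also TATAA. Hbb-y held CCAAT and the CATAAA form, and Hba-x held CACCC and TATAA without CCAAT. Alas2, which moved against the globins, held CACCC on the opposite strand and a GATA form but no CCAAT, and Afp held CCAAT on the opposite strand and TATAA. In the whole 250 bases before the start, a GATA form was found in Hbb-y, Hbb-bs, Hba-x, Hba-a1, Hba-a2 and Alas2 and not in Hbb-bt or Afp. Of 32851 promoters of that length, 52.0% held CACCC, 33.8% CCAAT, 26.5% a GATA form and 29.7% a TATA form, so such matches are common, and they describe letters only.

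Other globins were low or not seen. Of 6 genes, 3 entered the test. Myoglobin (Mb), the oxygen store of muscle, had 2 and 2 against 35 and 35 counts (log2 fold change 2.15), and cytoglobin (Cygb), found in hepatic stellate cells, had 74 and 64 against 61 and 69 (log2 fold change -2.04, or -0.27 and not called with the hepatocyte markers set equal). Neuroglobin (Ngb) was not called (adjusted p = 0.0519). Hbb-bh2 and Hbq1a had 0 counts in all 4 libraries, and Hbq1b had 2 counts in non-fasted library 2 alone.

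The remaining enzymes of heme synthesis followed Alas2 and not the globins. All 8 were called lower in the non-fasted libraries, beside 37.2% of all genes tested. Their median log2 fold change was -1.08, beside 0.13 over all genes tested. Alas1 was the lowest, with 7511 and 7503 against 4127 and 4101 counts, with its log2 fold change at -2.82 and a standard error of 0.028 (adjusted p = 2.6e-12). Cpox, a mitochondrial enzyme late in the pathway, had a log2 fold change of -2.17, Fech, which inserts the iron, -1.53, and Urod -1.18. With the hepatocyte markers set equal, 6 were higher and 2 lower, Alas1 at -1.05 and Cpox at -0.41 being the 2 that stayed lower. Of all 15470 genes tested, 13942 were higher and 720 lower under that scaling. The direction of this list thus turned with the scaling, as that of Alas2 did.

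Genes of the red cell membrane were mostly higher in the non-fasted libraries. Of 20 listed, 14 entered the test, of which 9 were higher and 3 lower, with a median log2 fold change of 2.28. Over all genes tested 45.0% were higher and 37.2% lower, with a median of 0.13. Slc4a1, the band 3 anion exchanger, had 2 and 2 against 89 and 57 counts (log2 fold change 3.20, adjusted p = 0.00102). Ank1, the ankyrin that ties band 3 to the skeleton, had 2 and 2 against 41 and 47 counts (log2 fold change 2.48). Both genes were thus near 0 in the fasted libraries, unlike Alas2. Larger rises were seen in Ermap, with 1 and 0 against 1288 and 1262 counts, Tmod1, with 1 and 3 against 564 and 589, and Add2, with 0 and 0 against 328 and 360, at least 59.2-fold higher after median-of-ratios scaling. Aqp1, a water channel also made by endothelium, had the most counts of the list and a log2 fold change of 1.04. The 3 lower genes were Xk, Epb41 and Gypc. With the hepatocyte markers set equal 12 were higher and 0 lower, beside 13942 and 720 of all 15470 genes tested. Epb42, Rhag, Rhd, Kel and Tspo2, none above 19 counts in a library, were among those that did not enter the test.

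The genes of the red cell cytosol were divided. Of 15 listed, 11 entered the test, 5 higher and 6 lower, with a median of -0.19. All genes tested were 45.0% higher and 37.2% lower. Carbonic anhydrase genes went apart: Car2 had 35 and 42 against 9481 and 9379 counts (log2 fold change 5.98, adjusted p = 9.2e-12), whereas Car1, the form abundant in red cells, had 138 and 142 against 105 and 121 (log2 fold change -2.26, adjusted p = 2.6e-07). Isg20 (5.44), Trim10 (3.91), Ube2o (2.57) and Bnip3l (0.44) were the other higher genes. Blvrb (-2.03), Prdx2 (-0.57), Nt5c3 (-0.43), Bpgm (-0.19) and Cpox were the other lower ones. With the hepatocyte markers set equal, Car1 was at -0.49, Blvrb at -0.27 and Cpox at -0.41, and 8 were higher, beside 13942 of all 15470 genes tested. Hemgn and Trim58, made in red cell precursors, had at most 2 counts in any library.

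Of 10 iron uptake genes, 5 were higher and 4 lower, with a median of 0.024. This is near the 45.0% higher and 37.2% lower of all genes tested, whose median was 0.13. Tfrc, the transferrin receptor, had 276 and 261 against 2188 and 2341 counts (log2 fold change 1.12, adjusted p = 3.0e-07). Glrx5, needed for iron-sulfur clusters, was at 5.26 on the log2 fold change scale and Flvcr1, a heme exporter, at 2.73, with Steap3 at 0.37 and Snx3 at 0.15. Abcb10 (-1.01), Slc11a2 (-0.41) and Slc25a38 (-0.22) were among the lower genes. Slc25a37, the mitochondrial iron importer of red cell precursors, was not called (-0.10, adjusted p = 0.0611). All 10 were higher with the hepatocyte markers set equal, as were 13942 of all 15470 genes tested.

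Among regulators of red cell formation, the most specific were scarce. Gata1, the factor that drives globin genes, had 0 and 0 against 15 and 14 counts and did not enter the test, and Gfi1b had at most 2 counts. Klf1, the activator of adult β-globin, had 26 and 33 against 28 and 15 counts, with its log2 fold change at -2.40 and a standard error of 0.32 (adjusted p = 1.2e-04), so it was lower where the adult globins were higher. Of the 11 tested, 5 were higher and 4 lower, near the 45.0% and 37.2% of all genes tested. Higher were the receptors Kit (4.17) and Epor (2.43), with Nfe2 (1.09), Ldb1 (0.86) and Jak2 (0.62). Lower besides Klf1 were Lmo2 (-0.65), Stat5a (-0.55) and Zfpm1 (-0.53), while Tal1 (0.58, adjusted p = 0.117) and Lyl1 (-0.66, adjusted p = 0.129) were not called. With the hepatocyte markers set equal 10 were higher, beside 13942 of all 15470 genes tested, and Klf1 was at -0.64 (adjusted p = 0.0610).

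Genes tied to the switch from embryonic to adult globin gave 3 higher and 5 lower of 10 tested, with a median of -0.24. The shares over all genes tested were 45.0% and 37.2%. Sox6, which with Bcl11a silences embryonic globin, had 197 and 184 against 200 and 188 counts (log2 fold change -1.93, adjusted p = 1.3e-07). Bcl11a itself had 2 and 0 against 19 and 14 counts and did not enter the test. The fetal RNA-binding protein genes Igf2bp1, with 0 and 0 against 1115 and 1168 counts, and Igf2bp3, with 3 and 7 against 547 and 627, were higher, the former at least 196-fold after median-of-ratios scaling, and so was Mbd2 (0.76). Lower besides Sox6 were Ikzf1 (-1.63), Nr2c1 (-1.08), Nr2c2 (-0.47) and Chd4 (-0.35), while Zbtb7a (0.047) and Klf2 (-0.13) were not called. Lin28a, Lin28b and Myb stood at 11 counts or fewer in every library. None of the 10 was lower with the hepatocyte markers set equal, where 8 were higher. Of all 15470 genes tested, 720 were lower and 13942 higher there.

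**Figure D4:**
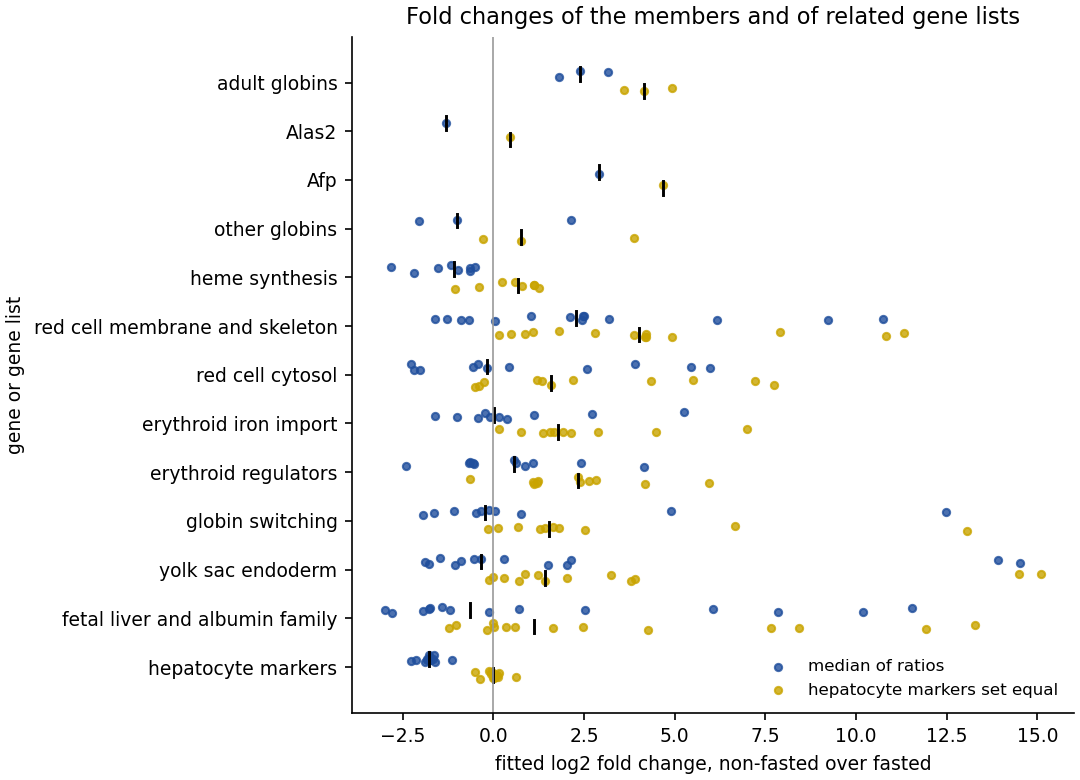
Fitted log2 fold change, non-fasted over fasted, for the tested adult globins, for Alas2, for Afp and for the tested genes of each list, after median-of-ratios scaling (blue) and with the hepatocyte markers set equal (yellow). Points are genes and black ticks are medians. Adult globins and Afp lie right of 0 under both, whereas Alas2 and the heme synthesis median cross 0, from -1.08 to 0.69 for the latter, and values above 10 are of genes at or near 0 in the fasted libraries.

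Of the genes that accompany Afp in the yolk sac endoderm, 5 were higher and 5 lower of 13 tested, with a median of -0.34. The list was thus not uniform, beside 45.0% higher and 37.2% lower over all genes tested. Rhox5, with 0 and 0 against 2993 and 3164 counts, and Cited1, with 0 and 0 against 4673 and 4677, were at least 530-fold and 805-fold higher after median-of-ratios scaling. Both are made in placental cells as well. Sox17 (2.14), Slc13a4 (2.03) and Cubn (1.51), the endocytic receptor of the yolk sac and kidney, were higher. Amn, which forms the receptor with Cubn, had 0 and 0 against 4 and 7 counts and did not enter the test. Gata4 (-1.87), Apoa4 (-1.76), Gata6 (-1.07) and Dab2 (-0.34), all also made in adult liver, were among the lower genes, and Lrp2, Sox7 and Ihh were not called. With the hepatocyte markers set equal, 11 were higher and 0 lower, beside 13942 and 720 of all 15470 genes tested.

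Of 14 genes of the fetal liver and the albumin family, 5 were higher and 7 lower, with a median of -0.65. Over all genes tested the shares were 45.0% and 37.2%, and the median was 0.13. The largest rises of the list were in fetal growth genes. H19, an imprinted noncoding RNA that is silenced in liver after birth together with Afp, had 3 and 5 against 46625 and 46998 counts (log2 fold change 11.5, standard error 0.066, adjusted p = 5.4e-14). Igf2, its imprinted neighbour, had 11 and 10 against 47349 and 47596 (log2 fold change 10.2). Both were thus near 0 in the fasted libraries, where Afp was low but had more counts, 27 and 39. Dlk1 (6.06), Mdk (2.52) and Hmga2, with 0 and 0 against 48 and 43 counts, were higher too. Gpc3, a fetal liver glypican, had 6 and 13 against 56 and 65 counts and was not called (log2 fold change 0.71, adjusted p = 0.0888), nor was Ccnd2. Zhx2 and Zbtb20, which repress Afp in the liver after birth, were lower, at -1.18 and -1.42, but higher with the hepatocyte markers set equal, at 0.58 and 0.35. Foxa1 (-2.99), Foxa2 (-2.80), Afm (-1.94), Gc (-1.78) and Alb (-1.76) were the other lower genes of the 14. With the hepatocyte markers set equal, 10 were higher and 3 lower, namely Foxa1, Foxa2 and Afm. Of all 15470 genes tested, 13942 were higher and 720 lower under that scaling.

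Markers of other blood and tissue cells were compared with the members. Neutrophil markers summed to 3.77 and 4.88 against 146 and 148 CPM, the latter mostly S100a8, and 3 of 4 tested were higher. Besides S100a8 these were Cxcr2, with 2 and 3 against 985 and 930 counts, and Ltf, with 0 and 0 against 65 and 65. S100a9 was not called, and Ngp, Camp and Mpo had at most 7 counts. Platelet markers summed to 4.06 and 3.99 against 14.8 and 14.6 CPM (2 of 6 tested higher), and lymphocyte markers to 11.1 and 11.8 against 7.25 and 7.93 (4 of 6 lower). Of 10 macrophage markers 2 were higher (Csf1r and Cd68) and 8 lower, and of 10 endothelial markers 6 were higher and 4 lower. All genes tested were 45.0% higher and 37.2% lower. The part of these cells and of trophoblast in the globin, Alas2 and Afp results was not tested.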

How the data were processed

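The authors deposited, for each of 4 libraries, raw counts per Entrez gene with no normalization. Per the submitters' processing notes the build was GRCm39 and the tools were STAR, featureCounts, Trimmomatic, MultiQC, FastQC and DESeq2 1.32.0, without roles. For the strand setting and for reads that match several genes, the handling was not given in the sources used here. Symbols came from an annotation on an earlier build, which left 1904 of 27179 identifiers without a symbol. Of 191 listed genes 190 had a row, and Ahsp and Hbb-bt were not analysed here.

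Counts were tested in R 4.3.3 with edgeR 4.0.16 (quasi-likelihood, two-sided) on all 4 libraries without covariates, after filterByExpr, with median-of-ratios scaling and Benjamini-Hochberg adjustment at 0.05 with no minimum fold. Fold changes are non-fasted over fasted, and standard errors were computed from these and F. Shares carry 95% Wilson intervals. A count of 0 was taken to allow 3 counts, over the group, and in such bounds the counts of the other group were taken as they stand. The test was tested on simulated data. Alternatives were TMM, total-count, upper-quartile and hepatocyte-marker scaling, no filter or a filter of 1 CPM, DESeq2 1.42.0, limma-voom 3.58.1, fixed coefficients of variation of 0.2 and 0.4, an exactly computed deviance, thinning, a replicate block and leaving out each library. Figures were drawn with matplotlib 3.10.9.

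Named were all members, in each list up to 4 called genes with the largest fold change and the most abundant one, and for each member the 3 genes nearest in log2(CPM + 0.1) over the 4 libraries. Other genes, such as those beside counts of 5 or fewer, were named after their values were seen. The members and lists were chosen with earlier results of these data known. Some members of these lists are counted but not reported here by name.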

Additional observations from a re-analysis of the deposited data

How the results depend on the processing

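Of the members, 5 were called higher, 6 with hepatocyte-marker scaling, where Alas2 joined them, and 4 with the filter of 1 CPM, after thinning and without either non-fasted library, where Hbb-y did not pass the filter. Alas2, the member called lower, was the exception among the members: with hepatocyte-marker scaling it was reversed to a log2 fold change of 0.47, and at a fixed coefficient of variation of 0.4 it lost its call (adjusted p = 0.0728), so 0 members were lower under either. In the other 120 tests of single members and Hbb-b1 under an alternative, direction and call were kept. Among the list counts, hepatocyte-marker scaling left 0 other globins lower, turned heme synthesis to 6 higher and 2 lower, left 0 red cell membrane genes lower, gave 8 higher and 3 lower in the red cell cytosol, 10 and 0 in iron import, 10 and 0 among erythroid regulators, 8 and 0 in globin switching, 11 and 0 in yolk sac endoderm, and 10 and 3 in the fetal liver list. With total counts there were 3 lower in the cytosol list, 2 in iron import, 1 among regulators, and 6 higher and 3 lower in globin switching. At a coefficient of 0.2, lower calls were 5 in heme synthesis, 3 in the cytosol, 2 in iron import, 1 among regulators and 3 in globin switching, and higher calls were 3 in iron import and 3 among regulators. At 0.4, lower calls were 3 in heme synthesis, 1 in the membrane list, 3 in the cytosol, 1 in iron import, 1 among regulators, 2 in globin switching and 3 in yolk sac endoderm, and higher calls were 2 in iron import and 2 among regulators. Other globins had 0 higher with a filter of 1 CPM, and 2 lower with upper-quartile scaling, with limma-voom and with the deviance computed exactly. The cause of these shifts beyond the construction of each setting was not tested. Over all genes the split was 6965 higher and 5756 lower, 9694 and 3551 with total counts, 13942 and 720 with hepatocyte-marker scaling, 5243 and 3714 at a coefficient of 0.2 and 3691 and 1648 at 0.4. The list medians were the same with genes at 0 in the fasted group set to their bound. The embryonic β share was 0.262% after thinning to the smallest total, where fewer counts stood behind it, and 0.114% with Hbb-b1 in the denominator, a setting chosen after the data were seen. With Hbb-b1 added to Hbb-bs, also chosen after, the ratio of group means was 0.997 in place of 1.52 for adult α per β count, 13.3 in place of 10.2 for Alas2 per adult globin count, and 18.2 for adult globins per Alb count. Leaving out 1 library moved no list count by over 1.5 times and, apart from Hbb-y, changed no call of a tested member. The few globin counts of the fasted libraries limit what their embryonic shares can show.

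Whether the replicate numbers pair the samples could not be settled. Deviations of fasted and non-fasted replicate 1 from their group means correlated at r = -0.00297 over 15470 genes, which are not independent. Replicates differed so little (common coefficient of variation 0.009882) that such a value can be near 0 with or without pairing. With a replicate block, 5 members were higher and 1 lower, and 6929 genes were higher and 5743 lower.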

Other observations

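The genes nearest to each member by counts over the 4 libraries were few of them red cell genes, which describes 4 libraries in 2 groups and nothing of function or control. The distance is Euclidean, over 4 libraries, in log2(CPM + 0.1). Nearest to Alas2 were Tomm70a, an import receptor of mitochondria, at a distance of 0.052, then Uqcr10, a subunit of the respiratory chain, and Hsd17b2, at 0.076 and 0.078. Tomm70a had 1984 and 1958 counts with fasting against 3072 and 3081 without. Nearest to Hba-a1 were Rusc2 (0.104), Micall1 (0.184) and Ube2o (0.208), the last a ubiquitin ligase active in maturing red cells. Hba-a2 was closest to Tmem191c, P3h4 and Fkbp10 (0.199, 0.203 and 0.318). Nearest to Hbb-bs were Tbrg1, Slc3a2 and Fkbp1a (0.153, 0.247 and 0.260), and nearest to Afp were Zfp775, Csrnp2 and Prkx (0.098, 0.255 and 0.293). Hbb-y, with 0, 0, 18 and 20 counts, was tied at a distance of 0 with Scd4, Mir542 and Ube2dnl1, and Hba-x was closest to Gzmm and Shox2, with 0, 0, 17 and 9 counts each, and to Spag6.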
